A study of Homo sapiens with 9 samples.

Results

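The unfolded protein response was examined through 36 genes, chosen by symbol as its sensors, its transcription factors and their known targets, among the 29740 gene symbols of the count table. All 36 were expressed and tested, and 14740 genes were tested in all. By their main route of control they were placed in 4 groups, with 3 sensors, 12 genes of the PERK/ATF4 arm, 8 of the IRE1/XBP1 arm and 13 of the ATF6 arm. The cells were HMEC-1, an immortalised line of human dermal microvascular endothelial cells. They were left untreated (CTRL) or given 50 µM trimethylamine N-oxide (TMAO), a metabolite that gut bacteria and the liver make from choline and carnitine, for 24H or for 48H. RNA was sequenced in 3 libraries per group. The untreated cells of both time-points were pooled into 1 control group, so TMAO and time in culture cannot be told apart. All libraries come from 1 cell line, and the labels do not say whether they are separate cultures, so the p-values measure only the spread between these libraries.

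The unfolded protein response is set off when unfolded proteins build up in the endoplasmic reticulum (ER). PERK, encoded by EIF2AK3, then phosphorylates the translation factor eIF2α, which lowers protein synthesis but favours translation of the transcription factor ATF4. IRE1, encoded by ERN1, splices the XBP1 mRNA into its active form, and ATF6 is cut to release a transcription factor that raises ER chaperones. In endothelial cells, which secrete much protein, the response is known in atherosclerosis and inflammation, and PERK has been reported as a sensor of TMAO. Gene counts show neither the phosphorylation of PERK and eIF2α nor the splicing of XBP1, and the ATF6 and XBP1 targets overlap, so the arms are a sorting by main route only.

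Promoters of some chaperone genes carry the sequence by which ATF6 and XBP1 act, the ER stress response element. It is shown here because chaperone genes are the usual readout of the response. In RefSeq promoter windows of 300 bases (GRCh38.p14, 250 bases before the start site and 50 after), 34 of the 36 genes were found, all but DERL1 and DERL3. Both strands were searched for the letters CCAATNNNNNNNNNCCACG, and 5 of the 34 genes held them, XBP1, HSPA5, HSP90B1 (2 matches), PDIA6 and CRELD2. Of all 35114 promoter windows, 0.0769% did. Here and below, members are counted by gene, with 46 windows for the 34 genes and a match in any window counted. The shares over all promoters are counted by window, so the 2 are not on the same unit. In the 6 matches the capitals mark the fixed letters, the bases between them differ from gene to gene, and the strand is the one on which the printed letters lie, which for CRELD2 and the proximal match of HSP90B1 is opposite to the gene:
HSPA5 (chr9:125241391-125241409, minus strand): CCAATcggcggcctCCACG
HSP90B1, distal (chr12:103930216-103930234, plus strand): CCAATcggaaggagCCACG
HSP90B1, proximal (chr12:103930321-103930339, minus strand): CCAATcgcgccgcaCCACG
PDIA6 (chr2:10812853-10812871, minus strand): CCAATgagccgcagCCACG
CRELD2 (chr22:49918554-49918572, minus strand): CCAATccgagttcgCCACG
XBP1 (chr22:28800603-28800621, minus strand): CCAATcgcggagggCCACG

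The related element ERSE-II (ATTGGNCCACG) was found in SDF2L1, HYOU1 (2 matches) and HERPUD1 and in 0.0541% of all windows, and the XBP1 element UPRE (TGACGTGG) in HYOU1 alone among the members and in 0.729% of all windows. The UPRE match of HYOU1 overlaps its distal ERSE-II match. The letters TGATGNAA, the form in which ATF4 commonly binds with a C/EBP partner, were in 6 genes, ATF3, ASNS, CHAC1, SLC3A2, CEBPG and HERPUD1, of which 5 belong to the PERK/ATF4 arm, and in 3.62% of all windows. The cyclic AMP response element (TGACGTCA), which ATF and CREB proteins bind, was in PPP1R15A alone among the members and in 1.85% of all windows. A match describes the letters of a window and is not evidence of binding. For 4 genes on which the results below turn, the 250 bases before the start site are given 5′ to 3′ on the strand of the gene, with matches to any of the 5 elements in capitals:
HSPA5 (chr9:125241344-125241593, minus strand): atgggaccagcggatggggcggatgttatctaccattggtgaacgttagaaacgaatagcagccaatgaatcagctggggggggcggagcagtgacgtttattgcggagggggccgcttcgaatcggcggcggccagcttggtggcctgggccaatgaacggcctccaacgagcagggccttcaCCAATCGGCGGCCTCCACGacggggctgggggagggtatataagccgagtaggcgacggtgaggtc
XBP1 (chr22:28800570-28800819, minus strand, the first of 2 windows): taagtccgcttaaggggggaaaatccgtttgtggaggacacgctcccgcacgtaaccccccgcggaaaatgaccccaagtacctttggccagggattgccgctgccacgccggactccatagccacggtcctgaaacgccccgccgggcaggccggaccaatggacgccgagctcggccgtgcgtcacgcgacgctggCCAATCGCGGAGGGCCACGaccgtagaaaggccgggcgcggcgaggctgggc
ATF3 (chr1:212565157-212565406, plus strand, the first of 2 windows): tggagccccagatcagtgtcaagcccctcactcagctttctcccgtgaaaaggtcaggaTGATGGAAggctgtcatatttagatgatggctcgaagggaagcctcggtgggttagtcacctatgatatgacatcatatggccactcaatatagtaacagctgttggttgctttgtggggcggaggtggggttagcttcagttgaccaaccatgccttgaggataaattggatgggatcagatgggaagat
PPP1R15A (chr19:48872171-48872420, plus strand): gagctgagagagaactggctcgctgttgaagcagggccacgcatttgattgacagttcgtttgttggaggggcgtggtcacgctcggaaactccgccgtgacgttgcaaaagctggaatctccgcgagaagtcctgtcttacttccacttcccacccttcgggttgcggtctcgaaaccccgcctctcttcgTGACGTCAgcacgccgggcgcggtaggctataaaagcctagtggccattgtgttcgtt

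In the window of DDIT4 and in that of P4HB, both considered below, no match to the 5 elements was found. The coordinates are those of RefSeq and not of the counts, whose build is not given in the sources used here.

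The libraries held between 25205753 and 36927364 estimated counts, and the 36 genes took 0.49% to 0.516% of the counts left after ribosomal RNA was set aside. Every member had at least 100 counts in every library. Ribosomal RNA took 31.5% of the counts of TMAO 24H replicate 1 and 1.64% to 7.46% in the other 8 libraries. All 14 endothelial markers looked at were expressed, with a summed level of 3340 to 3710 CPM (counts scaled to the TMM-normalised library size) in CTRL, 3330 to 3530 at 24H and 3030 to 3280 at 48H. A fibroblast list of 7 genes, 5 of them expressed, summed to 959 to 1120 CPM in CTRL, 967 to 1050 at 24H and 616 to 673 at 48H, nearly all of it COL1A1 and COL1A2, with DCN and LUM at or near 0. A smooth muscle list of 5 genes summed to 79.4 to 91.5 CPM in CTRL, 75.3 to 82.6 at 24H and 104 to 115 at 48H, mostly TAGLN, and an epithelial list of 5 genes to 680 to 776, 685 to 718 and 608 to 635 CPM, mostly KRT18. A leukocyte list of 5 genes summed to 19.4 to 23.4 CPM over all libraries, mostly CD68, with CD3E at 0. In bulk RNA, fewer cells of a type and less RNA per cell cannot be told apart, and the part of these shifts in the 48H results below was not tested.

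Levels in untreated cells were compared per kilobase of exon, on the scale of CPM per kb. The ER chaperone HSP90B1 (GRP94) stood highest at 268 ± 9.32, followed by the disulfide isomerase P4HB at 252 ± 14, the chaperone HSPA5 (BiP) at 170 ± 10.6 and the transcription factor ATF4 at 139 ± 6.97 (mean ± SD, n = 3). HSP90B1 and P4HB overlapped within their spread. The lowest were the IRE1 gene ERN1 at 0.618 ± 0.0624, the lipoprotein receptor VLDLR at 1.22 ± 0.0894 and the ER degradation factor DERL3 at 1.68 ± 0.188, so that the levels ran over 434-fold. Of the sensors, ATF6 stood at 16.4, EIF2AK3 at 6.98 and ERN1 at 0.618 CPM per kb. Exon lengths were taken from GENCODE release 29 and may differ from those of the authors' annotation.

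The first comparison asks whether the response differed from CTRL after 24H of TMAO. None of the 36 genes passed the test at 24H. A gene passed at an adjusted p-value under 0.05 in edgeR's quasi-likelihood test, adjusted by Benjamini-Hochberg over all genes tested. Of the 14740 genes, 0% passed as higher and 0.0950% as lower. With DESeq2 the count of members was also 0, beside 3 genes higher and 52 lower. At an unadjusted edgeR p-value under 0.05 it was 0 higher and 1 lower, beside 408 genes higher and 659 lower of 14740. The 1 lower member was CRELD2, an ER chaperone-binding protein, with a log2 fold change of -0.17 ± 0.07 (SE). The median log2 fold change of the 36 genes was -0.03 against -0.00042 for all genes, with 12 genes above 0 and 24 below. The members' median ran from -0.0338 to -0.0055 when a library was left out, nearest 0 without CTRL replicate 2. With a correction for GC content it was -0.0076. The 95% intervals of 35 of the 36 genes lay inside a 1.4-fold change in both directions, the fold that the study's methods required of a call. The exception was DDIT3, with an interval of -0.50 to 0.01.

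By arm, 12 of the 13 genes of the ATF6 arm lay below 0 at 24H, with a median of -0.03 and a range of -0.17 to 0.06, and the exception was SEL1L, a partner of the ubiquitin ligase of ER degradation. All 8 genes with an ERSE or ERSE-II match lay below 0, from -0.17 to -0.03, with none passing. The PERK/ATF4 arm had 6 genes above and 6 below, from -0.25 to 0.11, and the IRE1/XBP1 arm 3 above and 5 below, from -0.09 to 0.09. Groups that did not overlap, with all 3 treated libraries on the same side of all 3 controls, were found for 1 gene higher (CEBPG) and 4 lower (DDIT3, XBP1, CRELD2 and MANF). Over all genes tested, 6.73% did not overlap as higher and 7.52% as lower.

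**Figure D1:**
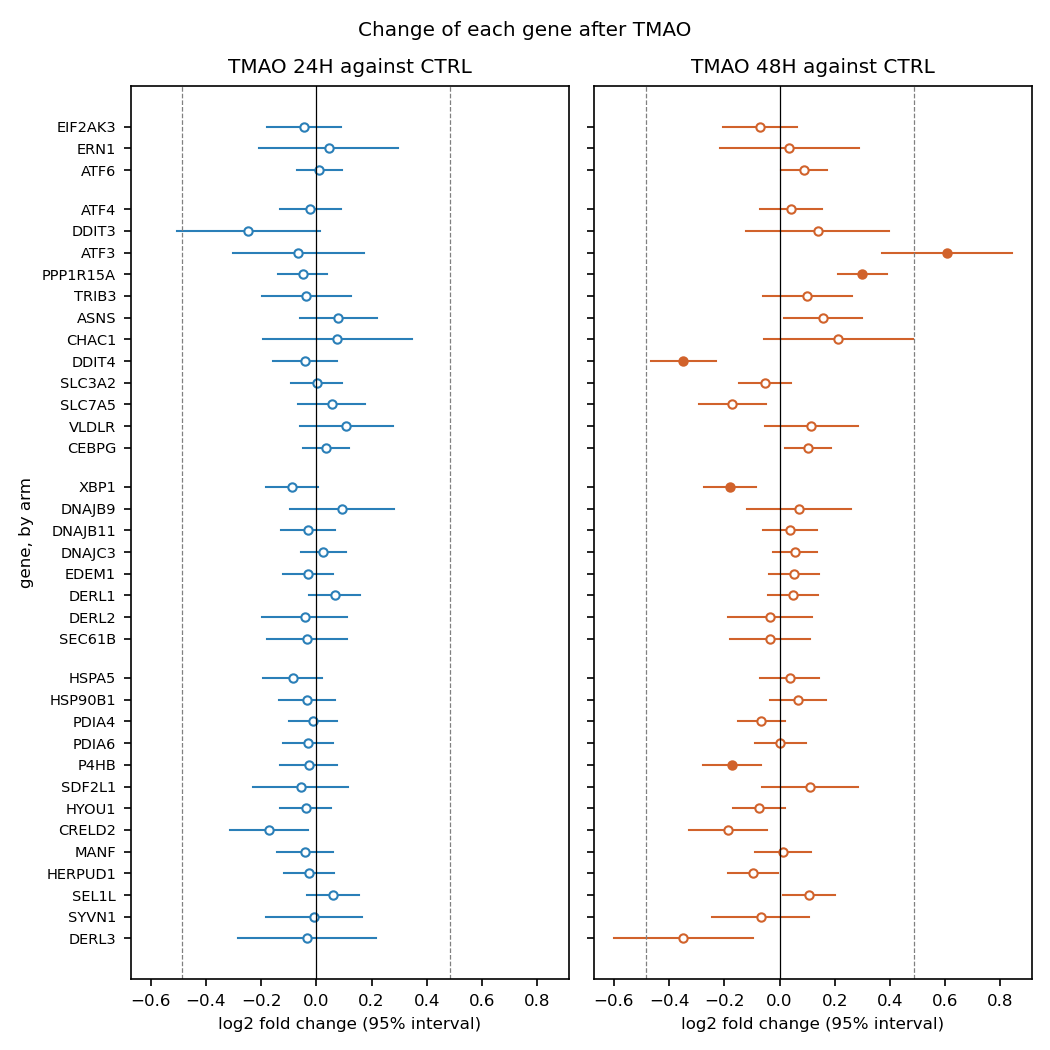
Log2 fold change of each of the 36 genes against CTRL at 24H (left) and at 48H (right), on 1 scale, with bars for the 95% interval and genes ordered by arm from the sensors at the top to the ATF6 arm at the bottom; filled points passed the test and dashed lines mark a 1.4-fold change. No point is filled at 24H, and 5 are at 48H, ATF3 and PPP1R15A to the right and DDIT4, XBP1 and P4HB to the left.

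The second comparison asks the same after 48H. There 5 of the 36 genes passed (13.9%), 2 of them higher, ATF3 and PPP1R15A, and 3 lower, DDIT4, XBP1 and P4HB. Of all genes tested, 5.14% passed as higher and 5.29% as lower, 10.4% together, so the share of members was near that of the whole table. At an unadjusted edgeR p-value under 0.05 the members were 6 higher and 7 lower, beside 1939 higher and 1863 lower of 14740 genes. DESeq2 passed 6 members, the same 5 and SLC7A5, beside 772 genes higher and 926 lower of 13128. With the fold threshold of 1.4 added, 1 member was called, ATF3, beside 0.882% of all genes higher and 0.916% lower. The median log2 fold change of the 36 genes was 0.04 against 0.0040 for all genes, with 22 above 0 and 14 below. Groups that did not overlap were found for 9 members higher and 6 lower, against 14.7% and 13.0% of all genes.

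At 48H the medians of the arms ran from -0.07 to 0.11. Of the 12 genes of the PERK/ATF4 arm, 9 lay above 0, with a median of 0.11, and 2 passed as higher and 1 as lower. The IRE1/XBP1 arm had a median of 0.04, with 5 of 8 genes above 0 and XBP1 alone passing, as lower. The ATF6 arm had a median of -0.07, with 6 genes above 0 and 7 below, and P4HB alone passed, as lower. None of the 3 sensors passed. Of all genes tested, 10.4% passed, as given above. The median of the PERK/ATF4 arm, relative to the mean of CTRL, was 0.14, 0.10 and 0.09 in the 48H libraries, against 0.01, 0.03 and -0.02 in CTRL and 0.0150, 0.0194 and 0.0165 at 24H. The arms were not tested against each other.

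**Figure D2:**
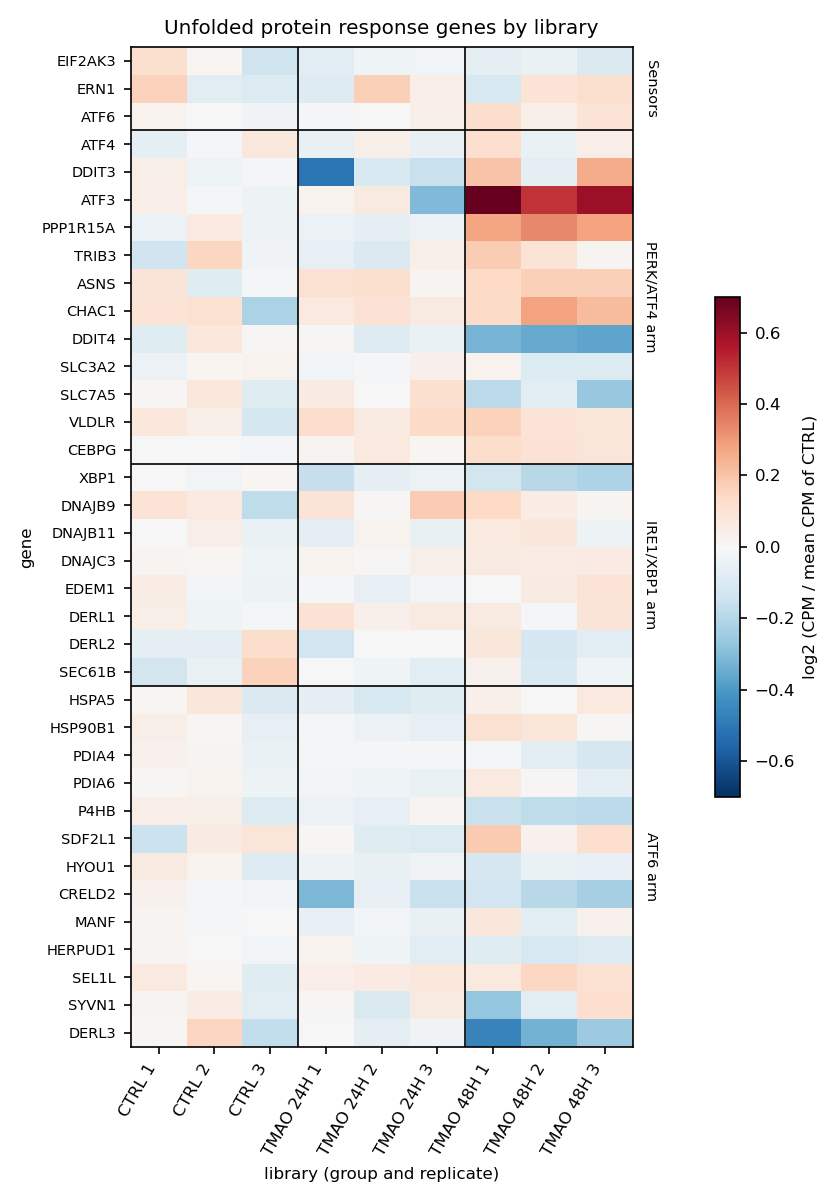
Heat map of the 36 genes (rows, by arm) in the 9 libraries (columns, by group and replicate), coloured by log2 of CPM over the mean CPM of the 3 CTRL libraries, with red above and blue below. ATF3 and PPP1R15A are red and DDIT4 is blue in all 3 TMAO 48H libraries, while most other cells are pale.

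EIF2AK3 (PERK) was at 36.4, 34.1 and 30.6 CPM in CTRL, 31.9, 33.0 and 33.3 at 24H and 32.3, 32.6 and 31.4 at 48H. The treated libraries lay within the range of the controls at both times. The log2 fold changes of EIF2AK3 were -0.04 ± 0.06 (24H) and -0.07 ± 0.06 (48H, both with SE), with adjusted p-values of 0.945 and 0.511 (edgeR). The interval at 48H ran from -0.20 to 0.06.

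ERN1 (IRE1), the lowest member per kilobase of exon, was at 6.75, 5.73 and 5.66 CPM in CTRL, 5.67, 6.80 and 6.24 at 24H and 5.59, 6.46 and 6.55 at 48H, and the groups overlapped. The log2 fold changes were 0.04 ± 0.12 at each time, with adjusted p-values of 0.977 and 0.89.

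ATF6 was at 125, 123 and 121 CPM in CTRL, 122, 123 and 126 at 24H and 134, 126 and 131 at 48H. All 48H libraries were above all controls. The log2 fold change at 48H was 0.09 ± 0.04, with an unadjusted p-value of 0.04 in edgeR and an adjusted one of 0.17, so the difference did not pass. With a correction for GC content it was 0.03, with an adjusted p-value of 0.728.

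In the PERK/ATF4 arm, ATF4 itself, whose mRNA need not change for its protein to rise, was at 332, 346 and 367 CPM in CTRL, 336, 358 and 336 at 24H and 378, 337 and 360 at 48H. The groups overlapped. The log2 fold change of ATF4 was -0.02 ± 0.05 at 24H and 0.04 ± 0.05 at 48H, and the adjusted p-values were 0.977 and 0.686 (edgeR).

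DDIT3 (CHOP), a transcription factor of the response that favours cell death, was at 8.26, 7.86 and 7.98 CPM in CTRL, 5.64, 7.46 and 7.21 at 24H and 9.22, 7.70 and 9.61 at 48H. All 24H libraries were below the controls, the lowest being replicate 1, in which ribosomal RNA took 31.5% of counts, while the 48H libraries overlapped with CTRL. The log2 fold change at 24H was -0.25 ± 0.12, with an adjusted p-value of 0.709 (edgeR), and -0.13 without TMAO 24H replicate 1. From 24H to 48H it differed by 0.38 ± 0.12, with an adjusted p-value of 0.0721, so no difference of DDIT3 passed.

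ATF3, a stress-induced transcription factor downstream of ATF4, was at 6.88, 6.61 and 6.49 CPM in CTRL, 6.78, 6.95 and 5.39 at 24H and 10.9, 9.47 and 10.1 at 48H. The 48H libraries were above every other library. ATF3 rose 1.52-fold at 48H, with a log2 fold change of 0.61 ± 0.11 and an adjusted p-value of 0.00425 (edgeR), and it was the largest change among the 36 genes. At 24H it was -0.07 ± 0.11, with an adjusted p-value of 0.955. The difference between the times, 0.67 ± 0.11, passed with an adjusted p-value of 0.00195. The first of the 2 ATF3 promoter windows, given above, holds 1 match to TGATGNAA, and the other holds none. Gene counts do not show which start site was used.

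PPP1R15A (GADD34), which directs protein phosphatase 1 to eIF2α and so ends the block of translation, was at 89.1, 96.1 and 89.5 CPM in CTRL, 89.2, 87.5 and 89.0 at 24H and 111, 116 and 112 at 48H. The 48H libraries again stood apart from the other 6. PPP1R15A rose 1.23-fold at 48H, with a log2 fold change of 0.30 ± 0.04 and an adjusted p-value of 0.000779 (edgeR), against -0.05 ± 0.04 at 24H. Between the times it differed by 0.35 ± 0.04, with an adjusted p-value of 0.000155.

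DDIT4 (REDD1), an inhibitor of the growth kinase complex mTORC1 that many stresses induce, moved the other way. It was at 34.9, 39.1 and 37.3 CPM in CTRL, 37.4, 34.9 and 35.97 at 24H and 29.6, 29.1 and 28.8 at 48H. All 48H libraries were below all others, and their spread was small. The log2 fold change of DDIT4 was -0.35 ± 0.05 at 48H, with an adjusted p-value of 0.00168 (edgeR), and -0.04 ± 0.05 at 24H. Between the times it differed by -0.31 ± 0.05, with an adjusted p-value of 0.0033. The calls for ATF3, PPP1R15A and DDIT4 at 48H and between the times were kept in all 18 alternative analyses. Through which pathway these genes moved was not tested.

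SLC7A5, the light chain of the amino acid transporter LAT1, was at 88.7, 92.9 and 83.2 CPM in CTRL, 91.8, 88.2 and 95.3 at 24H and 77.8, 84.0 and 73.5 at 48H. The 48H libraries were all below those at 24H, and TMAO 48H replicate 2 lay within the range of CTRL. SLC7A5 was lower at 48H than at 24H by a log2 difference of -0.23 ± 0.06, with an adjusted p-value of 0.026 (edgeR), while against CTRL it did not pass at 48H, at -0.17 ± 0.06 and 0.0695. Among other fits, the call between the times was lost without TMAO 24H replicate 1 (adjusted p-value 0.0688), TMAO 24H replicate 3 (0.114), TMAO 48H replicate 1 (0.051) or TMAO 48H replicate 3 (0.0799) and with a GC correction (0.0849). Against CTRL it passed at 48H with DESeq2 (0.0467), without CTRL replicate 3 (0.0359) and without TMAO 48H replicate 2 (0.0495). Its heavy chain partner SLC3A2 was at -0.05 ± 0.04 at 48H, with an adjusted p-value of 0.476 (edgeR).

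The other 6 genes of this arm, among them ASNS (asparagine synthetase) and SLC3A2, did not pass at either time. At 48H ASNS, CHAC1, which degrades glutathione, VLDLR and CEBPG, a C/EBP partner of ATF4, had all 3 libraries above all controls. So did 14.7% of all genes tested. The largest change among these members was that of CHAC1, at 0.21 ± 0.13 with an adjusted p-value of 0.306 (edgeR), measured at 3.31 to 4.69 CPM. The adjusted p-values (edgeR) of ASNS, VLDLR and CEBPG were 0.143, 0.388 and 0.108. TRIB3, a pseudokinase induced by ATF4 and CHOP, was at 0.10 ± 0.07 and overlapped with CTRL.

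**Figure D3:**
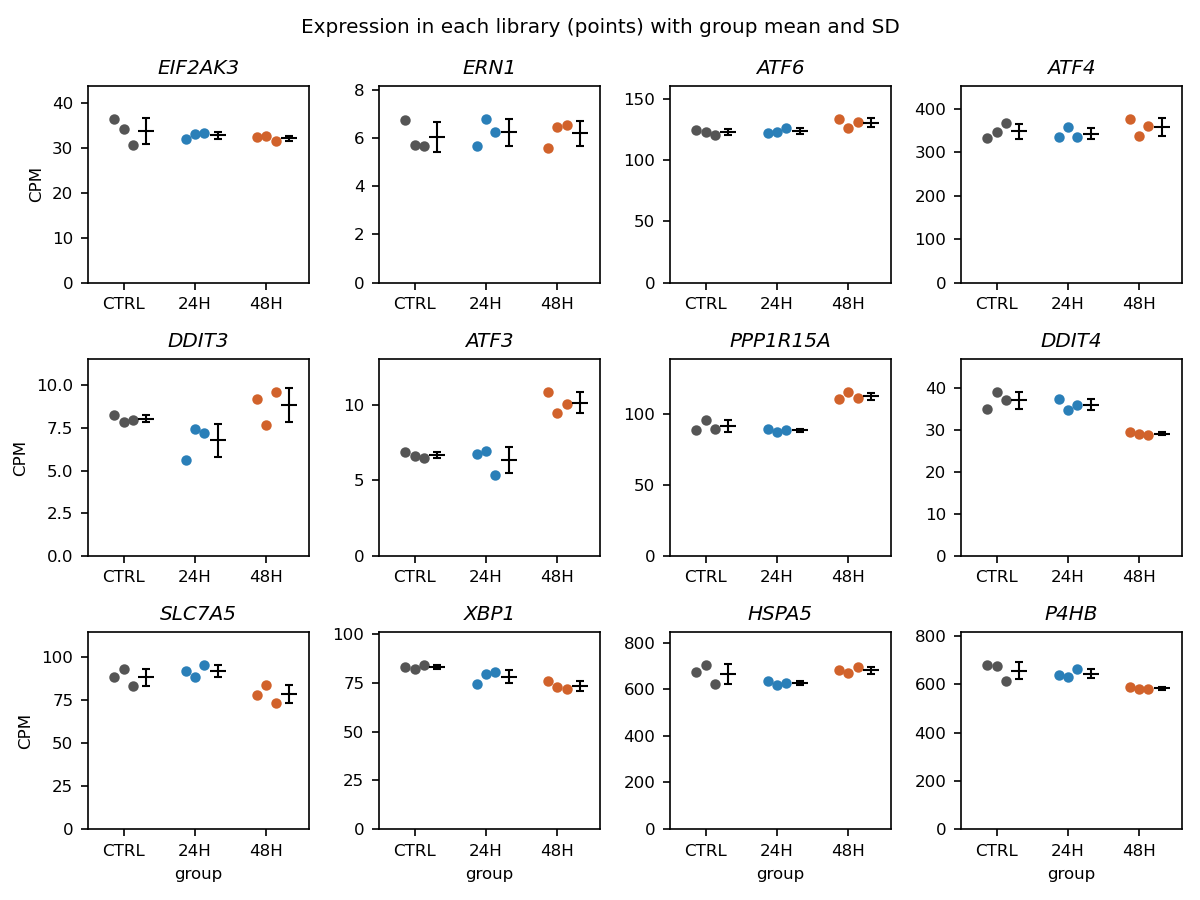
CPM in each of the 9 libraries (points, 3 per group, axes from 0) for 12 genes, with the group mean and SD beside them in black, for CTRL, TMAO 24H and TMAO 48H. ATF3 and PPP1R15A are above, and DDIT4 and P4HB below, all 6 other libraries at 48H, and the 3 sensors show no such gap from both other groups.

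In the IRE1/XBP1 arm, XBP1, the transcription factor that IRE1 activates, was at 83.5, 82.2 and 84.2 CPM in CTRL, 74.5, 79.5 and 80.9 at 24H and 76.3, 72.7 and 71.7 at 48H. All treated libraries at both times were below all controls. XBP1 had a log2 fold change of -0.09 ± 0.04 at 24H, with an adjusted p-value of 0.713 (edgeR), and -0.18 ± 0.04 at 48H, with an adjusted p-value of 0.0212, a fall to 0.884 of the control level. The direct difference between the times, -0.09 ± 0.04, did not pass, with an adjusted p-value of 0.254. Among the fits that left out a library, the call at 48H was lost without CTRL replicate 1 (adjusted p-value 0.0622), CTRL replicate 2 (0.0558), TMAO 48H replicate 2 (0.0836) or TMAO 48H replicate 3 (0.0569), with log2 fold changes from -0.16 to -0.24 over all 18 alternatives.

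The other 7 genes of that arm lay between -0.04 and 0.07 at 48H, with adjusted p-values from 0.381 to 0.806 (edgeR). They cover co-chaperones of BiP (DNAJB9, DNAJB11 and DNAJC3), factors of ER-associated degradation (EDEM1, DERL1 and DERL2) and the translocon subunit SEC61B. Their 95% intervals ran from -0.19 to 0.26, and DNAJC3 alone had groups that did not overlap, at 0.06 ± 0.04.

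In the ATF6 arm, the chaperone HSPA5 (BiP), whose induction is the most used mark of ER stress, was at 672, 703 and 620 CPM in CTRL, 637, 616 and 627 at 24H and 682, 667 and 697 at 48H. The groups overlapped with CTRL at both times, and the controls were spread more widely than the treated libraries. HSPA5 differed from CTRL by -0.09 ± 0.05 at 24H and by 0.04 ± 0.05 at 48H on the log2 scale, with adjusted p-values of 0.782 and 0.697 (edgeR). The interval at 48H ran from -0.07 to 0.14.

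P4HB, a disulfide isomerase that is also a subunit of the collagen prolyl hydroxylase, was at 679, 677 and 615 CPM in CTRL, 639, 630 and 665 at 24H and 589, 581 and 579 at 48H. The 48H libraries were below all others. P4HB fell by 0.17 on the log2 scale at 48H (SE 0.05), with an adjusted p-value of 0.0378 in edgeR, and was at -0.03 ± 0.05 at 24H. Among other fits, the call was lost without CTRL replicate 1 (adjusted p-value 0.127), CTRL replicate 2 (0.134), TMAO 24H replicate 1 (0.0521), TMAO 24H replicate 2 (0.0613), TMAO 24H replicate 3 (0.0547), TMAO 48H replicate 2 (0.115) or TMAO 48H replicate 3 (0.0759), with only the 2 groups compared in the fit (0.0833) and with the GC correction (0.181), where the log2 fold change was -0.11. Between the times P4HB differed by -0.15 ± 0.05, with an adjusted p-value of 0.0881, and passed with DESeq2 (0.0118), with only the 2 groups in the fit (0.0415) and without CTRL replicate 3 (0.022).

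Of the other 11 genes of the ATF6 arm, none passed at 48H. HSP90B1, at 739 to 790 CPM in CTRL and 774 to 827 at 48H, had a log2 fold change of 0.07 ± 0.05, and PDIA6, an isomerase, 0.0032 ± 0.04. PDIA4 was at -0.07, the chaperone HYOU1 at -0.07, the secreted stress factor MANF at 0.01, the BiP co-factor SDF2L1 at 0.11, and the degradation genes SEL1L, SYVN1 and HERPUD1 at 0.11, -0.07 and -0.10. CRELD2 was at -0.19 ± 0.07 with an adjusted p-value of 0.0862 (edgeR), and all its treated libraries at both times were below CTRL. DERL3, a low gene at 4.97 to 6.22 CPM in CTRL and 4.06 to 4.69 at 48H, had an interval of -0.60 to -0.10 that reached past a 1.4-fold fall, with an adjusted p-value of 0.0742.

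CTRL replicate 3 lay apart from the other 2 controls in this arm. The summed level of the 13 genes was 3247, 3252 and 3015 CPM in CTRL, 3107, 3056 and 3097 at 24H and 3169, 3128 and 3100 at 48H. Ribosomal RNA took 7.46% of counts in CTRL replicate 3 and 1.89% and 1.64% in the other 2 controls. Without that library the log2 fold change of HSPA5 at 48H turned from 0.04 to -0.02 (adjusted p-value 0.861, edgeR), and 5 members passed as lower at 48H in place of 3.

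The members were also sorted by the promoter elements given above. Of the 8 members with an ERSE or ERSE-II match, 4 lay above 0 and 4 below at 48H, with a median of -0.03 and a range of -0.19 to 0.11, and 1 passed, XBP1, as lower. Of the 6 members with a TGATGNAA match, 4 lay above 0, with a range of -0.10 to 0.61, and 1 passed, ATF3, as higher.

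The third comparison set 48H directly against 24H. Since both share the same controls, these drop out, and TMAO and time in culture cannot be told apart in the difference. This comparison passed 4 of the 36 genes, ATF3 and PPP1R15A as higher and DDIT4 and SLC7A5 as lower, all in the PERK/ATF4 arm. Of all genes tested, 3.77% passed as higher and 3.77% as lower.

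Another 106 genes of the same pathways, in 5 lists, were looked at to see whether the rest of the response moved, and 105 were tested (ERN2, with 32 counts in all libraries together, was not). At 24H 0 passed with edgeR and 0 with DESeq2. At an unadjusted edgeR p-value under 0.05, 4 were higher and 2 lower, beside 408 and 659 of the 14740 genes tested. At 48H 9 passed as higher and 6 as lower (14.3%, against 10.4% of all genes), with a median log2 fold change of 0.0032. The count of lower genes was 3 without CTRL replicate 2 or without TMAO 48H replicate 2 and 12 without CTRL replicate 3, and the counts over all alternatives lay between 6 and 9 higher and 3 and 12 lower.

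The list of the integrated stress response machinery held 11 genes. They encode the eIF2α kinases other than PERK, eIF2α itself, eIF2B, the phosphatase subunit PPP1R15B and the adaptor NCK1. At 48H 2 of the 11 passed as higher and none as lower (18.2%, against 10.4% of all genes). EIF2AK2 (PKR), an eIF2α kinase that senses double-stranded RNA and that interferon also induces, was at 0.44 ± 0.07 with an adjusted p-value of 0.00133. PPP1R15B, the constitutive counterpart of PPP1R15A, was at 0.17 ± 0.04 with an adjusted p-value of 0.0209 (edgeR).

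Of 30 other ATF4 and CHOP targets, 4 passed as higher and 2 as lower at 48H. NUPR1, a stress-induced chromatin protein, was at 0.51 ± 0.10, the stress cytokine GDF15 at 0.39 ± 0.06 and SLC7A11, the cystine carrier, at 0.39 ± 0.07, with adjusted p-values of 0.00696, 0.000961 and 0.00376 (edgeR). The death receptor TNFRSF10B was at 0.19. The 2 that fell were the glutamine carrier SLC1A5, at -0.18 ± 0.04, and the proline enzyme PYCR1, at -0.26 ± 0.06, with adjusted p-values of 0.0102 and 0.0146. GDF15 was at -0.22 at 24H, where it did not pass (adjusted p-value 0.336), and differed between the times by 0.61, with an adjusted p-value of 2.2e-05. NUPR1, GDF15 and TNFRSF10B are also known targets of other stress pathways.

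Of 14 tested partners of ATF6 and IRE1 signalling, 2 passed as higher and 1 as lower at 48H (21.4%, against 10.4% of all genes). MBTPS2, a protease that takes part in releasing ATF6, at 0.25 ± 0.05 and TMBIM6, an inhibitor of IRE1, at 0.15 ± 0.04 rose. CREB3L1, a membrane-bound transcription factor of the same kind as ATF6 that acts on collagen genes, fell by 0.53 on the log2 scale (SE 0.07), with an adjusted p-value of 0.000359 in edgeR, from 71.8 to 49.8 CPM on average. It was the largest change of the 15 that passed. The summed level of the fibroblast list, mostly collagen, was lower in the same libraries, as given above, and its part in this was not tested.

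Of 17 other ER folding enzymes and chaperones, 2 passed at 48H (11.8%, against 10.4% of all genes). ERO1LB, an oxidase that feeds the disulfide isomerases, rose by a log2 fold change of 0.41 ± 0.09. The isomerase TXNDC5 fell by 0.22 (SE 0.05). The adjusted p-values were 0.00895 and 0.0114 (edgeR). Of 33 other ER export, translocation and degradation genes, 2 passed, both lower (6.06%, against 10.4% of all genes). They were the degradation factor UFD1L at -0.24 ± 0.04 and the ER retrieval receptor KDELR3 at -0.24 ± 0.06. The adjusted p-values were 0.00412 and 0.0249 (edgeR). Between 48H and 24H, 5 of the 105 genes were higher and 8 lower (12.4%, against 7.53% of all genes). The count of lower genes was 3 without TMAO 48H replicate 2, 4 without any 1 of the TMAO 24H libraries and 13 without CTRL replicate 3, and over all alternatives 4 to 7 were higher and 3 to 13 lower. Of the 13 genes, ATF6B, FKBP11, SSR3 and SEC24D were lower at 48H than at 24H without passing against CTRL.

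**Figure D4:**
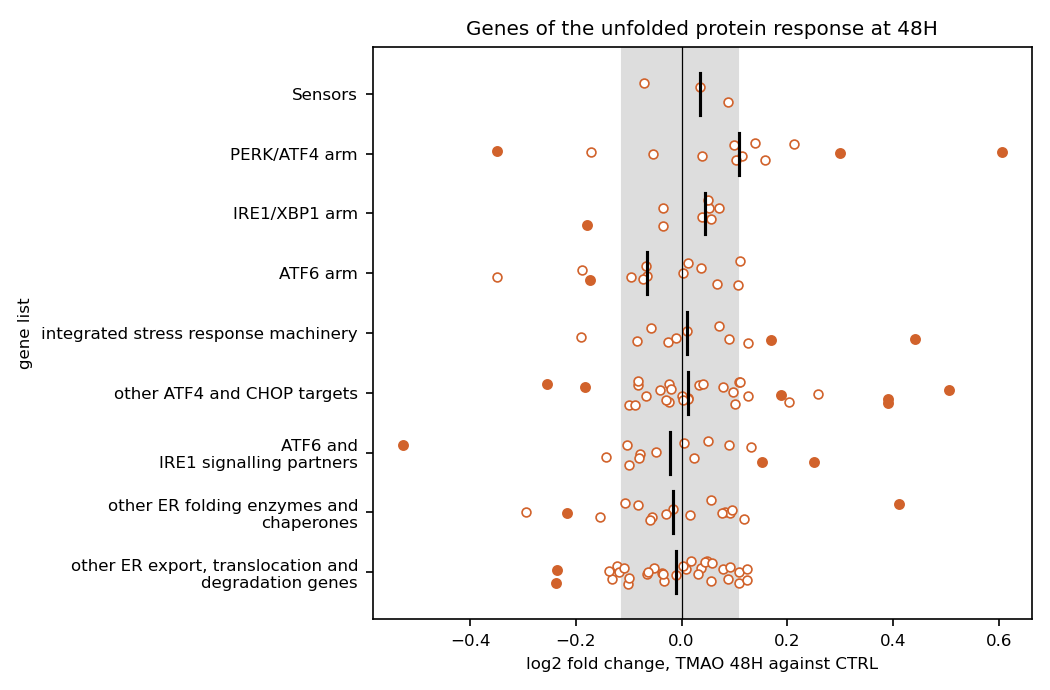
Log2 fold change at 48H against CTRL of the 36 genes by arm (top 4 rows) and of the 105 other tested genes in 5 lists (lower rows), 1 point per gene, filled where the test passed, with a black bar at the median of each row and grey for the interquartile range of all genes tested. ATF3 at 0.61 and CREB3L1 at -0.53 are the outermost points, and the medians of all rows lie within the grey band or at its edge.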

How the data were processed

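RNA of 9 HMEC-1 libraries was measured, 3 per group, grouped by the labels. The authors ran the nf-core RNAseq pipeline (version 3.6), Trim Galore is named in the submitters' processing notes, and the deposited values are estimated counts (expected counts) per gene symbol, not normalised. The quantifier, genome build, annotation and strand setting are not given in the sources used here, so genes that overlap an antisense gene are uncertain. Values were rounded before testing, and edgeR 4.0.16 (R 4.3.3) was run with filterByExpr, TMM normalisation and a quasi-likelihood fit (legacy = FALSE) of all 9 libraries, with Benjamini-Hochberg adjustment over 14740 genes and a threshold of 0.05. The procedure was also run on simulated counts, with the same spread for all genes and no difference in ribosomal RNA between libraries. That run cannot show how the calls hold in these data.

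The members and lists were chosen with earlier results of these data known. Values by library are given for EIF2AK3, ERN1, ATF6, XBP1, ATF4, DDIT3, HSPA5 and every member that passed in any comparison. From the other lists, up to 3 passing genes with the largest fold change are named, and further passing genes were named after their values were seen. The standard error of a log2 fold change was taken from its F value. For groups of 3 libraries an exact permutation test cannot go below p = 0.1. The 18 alternatives were DESeq2 1.42.0, other size factors (RLE), no expression filter, a minimum of 10 counts per library, edgeR's older quasi-likelihood method, only the 2 groups compared, a replicate block, removal of ribosomal RNA genes, leaving out each of the 9 libraries, and a correction for GC content chosen after seeing the data. Replicates differed by more than sampling noise. GC content was matched for 93.8% of genes tested and all 36 members. The coefficient of variation between replicates was 4.79% in CTRL, 2.62% at 24H and 3.71% at 48H (medians over members), and includes counting error, which weighs more in the members with few counts.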

Additional observations from a re-analysis of the deposited data

Results flagged for a closer look

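For 4 genes the effect of TMAO differed between the times by a direct test (48H against 24H, edgeR, adjusted over all genes tested). On the log2 scale the differences were 0.67 for ATF3, 0.35 for PPP1R15A, -0.31 for DDIT4 and -0.23 for SLC7A5. In each the 3 libraries at 48H did not overlap with the 3 at 24H. The same held for 2168 genes higher and 1905 lower of the 14740 tested. The difference of SLC7A5 did not pass in 6 of the 18 alternatives. Since the controls are pooled over both times, TMAO and time in culture cannot be told apart in these differences.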

How the results depend on the processing

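At 24H no member passed under any of the 18 alternatives. At 48H ATF3 and PPP1R15A were higher and DDIT4 was lower in all 18, and ATF3 alone reached 1.4-fold in each. The count of members lower at 48H, 3, was 1 under the replicate block and ran from 1 to 5 when a library was left out. The count lower at 48H than at 24H, 2, was 1 under the replicate block and 1 with the GC correction, and ran from 1 to 3 when a library was left out. The median log2 fold change of the members at 48H, 0.0376, was 0.0038 with the GC correction, under which ATF6 moved from 0.0871 to 0.0285, ATF4 from 0.0396 to 0.0871, HSPA5 from 0.0366 to 0.0081 and SLC7A5 from -0.171 to -0.0855 at 48H, none of them passing in either. The cause of these shifts was not tested. The labels do not say whether the replicate numbers pair the libraries. Same-numbered libraries deviated from their group means with r from -0.12 to 0.091 over 9 pairs, and other pairs with -0.1 to 0.16. Not every library correlated best with its own number. With 3 libraries per group, these values cannot decide whether the libraries were paired. Under the replicate block the adjusted p-values (edgeR) of XBP1 and P4HB at 48H were 0.0609 and 0.0927 and that of SLC7A5 between the times 0.0534, 4 of the other pathway genes were lower between the times in place of 8, and over all genes the block passed 432 higher and 516 lower at 48H, against 757 and 780 without it. At 24H, 14 genes were lower, against 1 under the replicate block and 52, with 3 higher, in DESeq2. Log2 fold changes that changed sign, none of which passed, were at 24H EIF2AK3 (0.0148 without CTRL replicate 1, with leave-one-out values down to -0.106), ERN1 (-0.0216 without TMAO 24H replicate 2, up to 0.131), ATF6 (-0.0047 without TMAO 24H replicate 3, up to 0.0227, and -0.0103 with the GC correction), ATF4 (0.0207 without CTRL replicate 3, down to -0.0545) and ATF3 (0.0429 without TMAO 24H replicate 3, down to -0.133). At 48H they were ERN1 (-0.0024, -0.0152 and -0.0050 without CTRL replicate 2, CTRL replicate 3 and TMAO 48H replicate 3, up to 0.122) and HSPA5 (-0.0159 without CTRL replicate 3, up to 0.0783), and between the times ERN1 (0.0570 and 0.0593 without TMAO 24H replicate 2 and TMAO 48H replicate 1, down to -0.0738). Other genes that lost a call are XBP1, P4HB and SLC7A5, with their values in the report. Depth limits the low members: CHAC1, with 100 counts in its lowest library, had a standard error of 0.125 at 48H, against 0.0375 for DNAJC3, with at least 1967.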
